A study of Mus musculus with 6 samples.

Results

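The mouse genes described here are 8 genes of osteoclast differentiation and cell fusion, chosen by name: Tnfrsf11a, Oscar, Nfatc1, Acp5, Itgb3, Calcr, Dcstamp and Ocstamp. All 8 had a row in the deposited table of 55401 genes. RNA sequencing measured them in macrophages grown from mouse bone marrow with the growth factor M-CSF, in 3 libraries of the Lamtor5 knockdown genotype and 3 WT libraries. Lamtor5 (HBXIP) is a subunit of Ragulator, the lysosomal scaffold of the Rag GTPases and mTORC1, and the series description marks the mutant with LysM, the myeloid promoter of Lyz2 that is used to drive Cre recombinase. Both groups received M-CSF, the labels name no RANK ligand for either, and no age or strain of the mice is stated. The question is which of these genes changed in M-CSF macrophages with less Lamtor5.

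Osteoclasts are the bone-resorbing cells that form when macrophage precursors fuse. M-CSF keeps the precursors alive, and RANK ligand, made by osteocytes, stromal cells and T cells, binds RANK (Tnfrsf11a) and signals through TRAF6, NF-kB and AP-1. Co-receptors such as OSCAR, which pair with ITAM adaptors, raise calcium, calcineurin activates NFATc1, and NFATc1 with AP-1 and PU.1 switches on the late genes, among them Acp5, Calcr, Itgb3, Oscar and Dcstamp in the mouse. M-CSF alone gives macrophages, not osteoclasts, so the starting levels of the late genes in such cultures are usually low.

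The 8 genes lie on 8 different chromosomes (GRCm38), with exons counted in the main GENCODE M21 transcript. Tnfrsf11a spans chr1:105780718-105847981 on the plus strand in 10 exons and Oscar chr7:3609813-3616157 on the minus strand in 5. Acp5 spans chr9:22126727-22135711 on the minus strand in 6 exons, Itgb3 chr11:104608000-104670476 on the plus strand in 15, and Calcr chr6:3685680-3764714 on the minus strand in 16. The fusion genes Dcstamp and Ocstamp span chr15:39745930-39760938 on the plus strand in 4 exons and chr2:165393760-165400405 on the minus strand in 3. The KEGG annotation in the deposited table places 6 of them in the osteoclast differentiation map, all but Dcstamp and Ocstamp. Acp5 overlaps the non-coding gene 6530413G14Rik on the other strand, which had 0 to 12 estimated counts per library against 766 to 1399 for Acp5. Nfatc1 overlaps an antisense gene, AC123818.1, that had no row under this name and was not analysed. No source says whether counting used strand.

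Promoter windows from RefSeq (GRCm38.p6) were searched for 4 of the 8 genes: Tnfrsf11a, Calcr, Oscar and Acp5. The other members, the NFATc1 gene among them, were left out of this search. Their absence here does not mean that RefSeq lists no promoter for them. The 250 bases before the start site are shown for RANK, which fell, and for the windows of known NFATc1 targets of mouse osteoclasts that held a motif match, those of Oscar and 1 of 3 Acp5 start sites. They were thus picked for their matches. Capitals mark matches, on either strand, to the letters TGGAAA (NFAT core), TGANTCA (AP-1), CACGTG and CATGTG (E-boxes of the kind MITF binds) and GAGGAA (PU.1 core).
Tnfrsf11a, chr1:105780473-105780722, plus strand: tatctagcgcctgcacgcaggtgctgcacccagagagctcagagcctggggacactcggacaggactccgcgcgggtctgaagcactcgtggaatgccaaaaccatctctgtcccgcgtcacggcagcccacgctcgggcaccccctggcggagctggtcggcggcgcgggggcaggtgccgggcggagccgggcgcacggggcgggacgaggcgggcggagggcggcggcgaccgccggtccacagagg
Oscar, chr7:3616158-3616407, minus strand: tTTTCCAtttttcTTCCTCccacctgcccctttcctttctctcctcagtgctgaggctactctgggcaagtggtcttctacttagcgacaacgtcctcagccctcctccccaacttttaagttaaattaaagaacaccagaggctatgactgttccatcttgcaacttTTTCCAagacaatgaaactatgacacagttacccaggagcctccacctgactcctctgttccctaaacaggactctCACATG
Acp5, chr9:22130599-22130848, minus strand: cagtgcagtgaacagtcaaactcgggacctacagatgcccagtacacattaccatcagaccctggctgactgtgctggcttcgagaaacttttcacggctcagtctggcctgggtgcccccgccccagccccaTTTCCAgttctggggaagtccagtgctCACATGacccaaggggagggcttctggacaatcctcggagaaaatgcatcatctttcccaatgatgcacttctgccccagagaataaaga

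The Tnfrsf11a window, with 73.6% G and C, held no match to any of these letters. The Oscar window held 4 matches: the NFAT core at 249 and 82 bases before the start site, the PU.1 core at 237 and an E-box at 6, each as the reverse complement. The Acp5 window held the NFAT core 117 and an E-box 90 bases before the start. The searched windows not shown, 2 of Calcr and the other 2 of Acp5, held no match. Among 32851 mouse promoter windows of the same length, 18.6% held the NFAT core, 6.75% the AP-1 letters, 6.02% CACGTG, 12.3% CATGTG and 23.3% the PU.1 core. A match describes letters and is not a measured site.

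The libraries held 26.0 to 28.0 M read pairs. Lamtor5 had 24.8 to 27.1 FPKM in the knockdown libraries and 54.5 to 56.2 FPKM in the WT libraries. Lyz2 was lower in all 3 knockdown libraries than in any WT library, where it had 22454 to 29379 FPKM. Knockdown replicate 3 stood apart, with 73.6 FPKM against 10650 and 11356 FPKM in knockdown replicates 2 and 1. Results are thus also given without knockdown replicate 3 for Tnfrsf11a, Itgb3, Itga2b and the counts of the pathway lists. The groups differ in both Lyz2 and Lamtor5, and the part of each in the results was not tested. The 8 other macrophage markers of the list (Cd68, Adgre1, Csf1r, Mertk, Fcgr1, Itgam, Mrc1, Cd14) summed to 1751 to 1915 FPKM in the knockdown and 1789 to 2001 FPKM in WT, and all of them had a mean of at least 1 FPKM, as the labelled cell type would have. Of the 9 markers, Cd68 was called higher and Adgre1, Csf1r, Fcgr1, Itgam and Cd14 lower, where 4.87% and 6.46% of all tested genes were. No label ties the libraries to separate animals, so p-values measure only how these libraries spread, and that spread may be technical.

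Of the 8 genes, 1 was higher in the knockdown libraries, 1 was lower, 3 did not pass the test and 3 were under the filter on low counts. Itgb3, the integrin beta 3 subunit, rose about 3.33-fold. Tnfrsf11a, the RANK receptor, fell to 0.588 of the WT level. Nfatc1, Acp5 and Dcstamp did not pass, and Oscar, Ocstamp and Calcr were near or at 0 in all 6 libraries. Thus 1 of 5 tested members was called higher, where 4.87% of the 18164 tested genes were, and 1 of 5 lower, where 6.46% were (edgeR's quasi-likelihood test, Benjamini-Hochberg adjusted p under 0.05). The knockdown and WT libraries did not overlap in 3 of 5 tested members, 1 higher and 2 lower, where 37.6% of all tested genes did not (18.5% higher, 19.1% lower). With 5 genes, these shares cannot be read closely against the background.

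**Figure D1:**
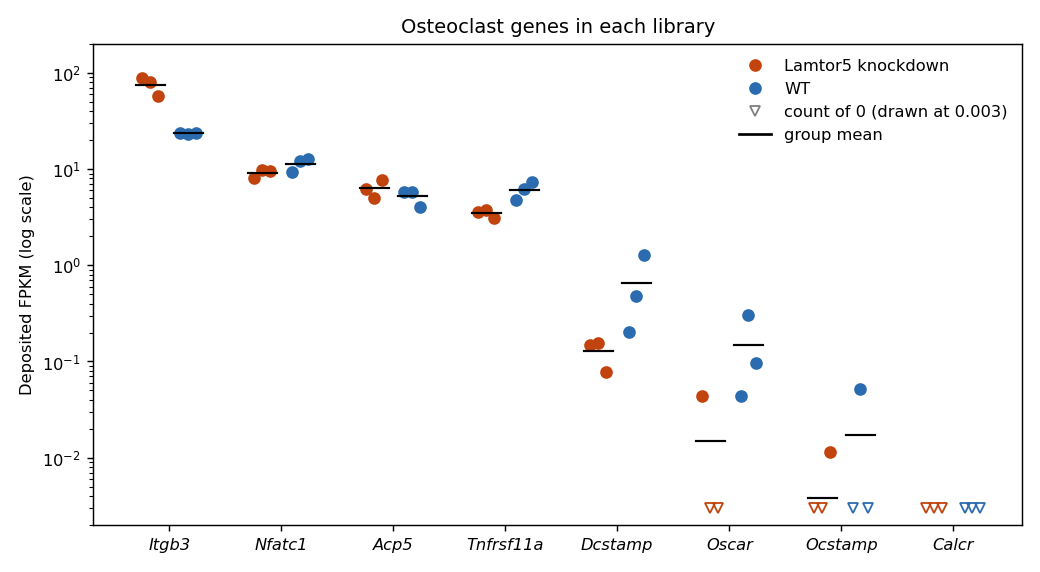
Deposited FPKM of the 8 genes on a log scale, 1 point per library, Lamtor5 knockdown left of WT, with a bar at each group mean; open triangles are counts of 0, drawn at 0.003. The knockdown points of Itgb3 (58.2 to 88.5) lie above all WT points (23.1 to 23.9), those of Tnfrsf11a (3.10 to 3.75) and Dcstamp (0.0785 to 0.156) lie below theirs, and Calcr has a count of 0 throughout.

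Tnfrsf11a encodes RANK, the receptor through which RANK ligand starts the program. It had 3.56, 3.75 and 3.10 FPKM in knockdown replicates 1 to 3, against 4.83, 6.16 and 7.36 FPKM in WT replicates 1 to 3. The groups did not overlap, and the WT libraries spread over 1.53-fold while the knockdown libraries spread over 1.21-fold. Its mean was 3.47 ± 0.331 FPKM in knockdown libraries and 6.11 ± 1.27 FPKM in WT libraries (SD, n = 3 each), with a log2 fold change of -0.77 (SE 0.16, edgeR adjusted p = 0.0284). In bulk RNA, fewer cells that express a gene and less RNA per cell cannot be told apart.

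The call of Tnfrsf11a was lost without any 1 of 5 libraries. The edgeR adjusted p was 0.0763, 0.0708 and 0.0885 without knockdown replicates 1, 2 and 3, with log2 fold changes of -0.80, -0.80 and -0.70. It was 0.103 without WT replicate 2 and 0.0639 without WT replicate 3, with -0.78 and -0.62, and it was 0.0151 without WT replicate 1, with -0.90. The direction was lower in each of these fits.

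Oscar, the immunoglobulin-like co-receptor that signals through the Fc receptor gamma chain, was barely detected. It had 8, 0 and 0 estimated counts in knockdown replicates 1 to 3 (0.0443 FPKM in replicate 1) and 8, 53 and 17 in WT replicates 1 to 3 (0.0438, 0.306 and 0.0968 FPKM). Knockdown replicate 1 and WT replicate 1 were at nearly the same level, so the groups overlapped (exact permutation test of FPKM, two-sided, p = 0.2, where 3 against 3 cannot go below 0.1). In the alternative edgeR fits that kept Oscar the log2 fold change ran from -7.65 to -2.55, and none passed. The lowest adjusted p in edgeR was 0.0951, without knockdown replicate 1, where the remaining knockdown counts were 0. Thus no difference was called at these low counts.

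Nfatc1, the transcription factor that drives the osteoclast program, was expressed at a moderate level in both groups. It spans chr18:80606205-80713071 on the minus strand in 8 exons. It had 8.11, 9.73 and 9.56 FPKM in knockdown replicates 1 to 3, against 9.42, 12.2 and 12.6 FPKM in WT replicates 1 to 3. The ranges overlapped through WT replicate 1, the lowest of its group. The means were 9.13 ± 0.892 FPKM in knockdown libraries and 11.4 ± 1.72 FPKM in WT libraries (SD, n = 3 each), and the log2 fold change of -0.27 (SE 0.12) did not pass in edgeR (adjusted p = 0.186). It passed under none of 14 other settings, with adjusted p from 0.0561 to 0.405.

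Acp5, which encodes tartrate-resistant acid phosphatase, the stain by which osteoclasts are recognised, did not separate the groups. It had 6.25, 5.003 and 7.71 FPKM in knockdown replicates 1 to 3, against 5.80, 5.77 and 4.05 FPKM in WT replicates 1 to 3. The means were 6.32 ± 1.35 FPKM in knockdown libraries and 5.21 ± 1.004 FPKM in WT libraries (SD, n = 3 each), with a log2 fold change of 0.33 (SE 0.22, edgeR adjusted p = 0.373). The knockdown library with the highest Acp5 was replicate 3, and the WT library with the lowest was replicate 3.

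Itgb3 pairs with the alpha V subunit to form the vitronectin receptor, by which osteoclasts attach to bone, and with alpha IIb in platelets. It was the most abundant of the 8 genes, with 88.5, 80.5 and 58.2 FPKM in knockdown replicates 1 to 3, against 23.9, 23.1 and 23.5 FPKM in WT replicates 1 to 3. Every knockdown library was above every WT library, at 3.77, 3.43 and 2.48 times the WT mean. The means were 75.8 ± 15.7 FPKM in knockdown libraries and 23.5 ± 0.382 FPKM in WT libraries (SD, n = 3 each).

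The log2 fold change of Itgb3 was 1.74 (SE 0.16, edgeR adjusted p = 0.00963), and its p was the smallest but 15 of 18164 tested genes. Without knockdown replicate 3, the library lowest in Lyz2, it was 1.89 (adjusted p = 0.00419). Without WT replicate 2 it was 1.71 with an adjusted p of 0.0616, and it passed without any other single library. In that fit no gene of the table passed in edgeR, although 1931 higher and 2134 lower genes had an unadjusted p under 0.05. The level of Itgb3 was at or above that of 97.1% of tested genes in the knockdown and 89.6% in WT.

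Calcr, the calcitonin receptor of mature osteoclasts, had 0 counts in all 6 libraries. A count of 0 allows up to 3 read pairs per library, or 0.108 to 0.117 per M pairs kept, counting error only.

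The fusion genes were low. Dcstamp, a membrane protein that precursors need to fuse, had 0.149, 0.156 and 0.0785 FPKM in knockdown replicates 1 to 3 (37, 36 and 19 estimated counts), against 0.204, 0.483 and 1.29 FPKM in WT replicates 1 to 3 (51, 121 and 322 estimated counts). The groups did not overlap, but WT spread over 6.31-fold. The log2 fold change was -2.30 (SE 0.69) and did not pass in edgeR (adjusted p = 0.0767). DESeq2 called it (adjusted p = 0.00747), as did edgeR without WT replicate 1 (-2.73, adjusted p = 0.0318), and without WT replicate 3, the highest library, the fold change was -1.37 (adjusted p = 0.208).

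Ocstamp, a related fusion protein, had 4 estimated counts in knockdown replicate 3 and 18 in WT replicate 2, and 0 in the other 4 libraries. The exact two-sided permutation test of its FPKM gave p = 1. No difference was detectable at this depth.

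**Figure D2:**
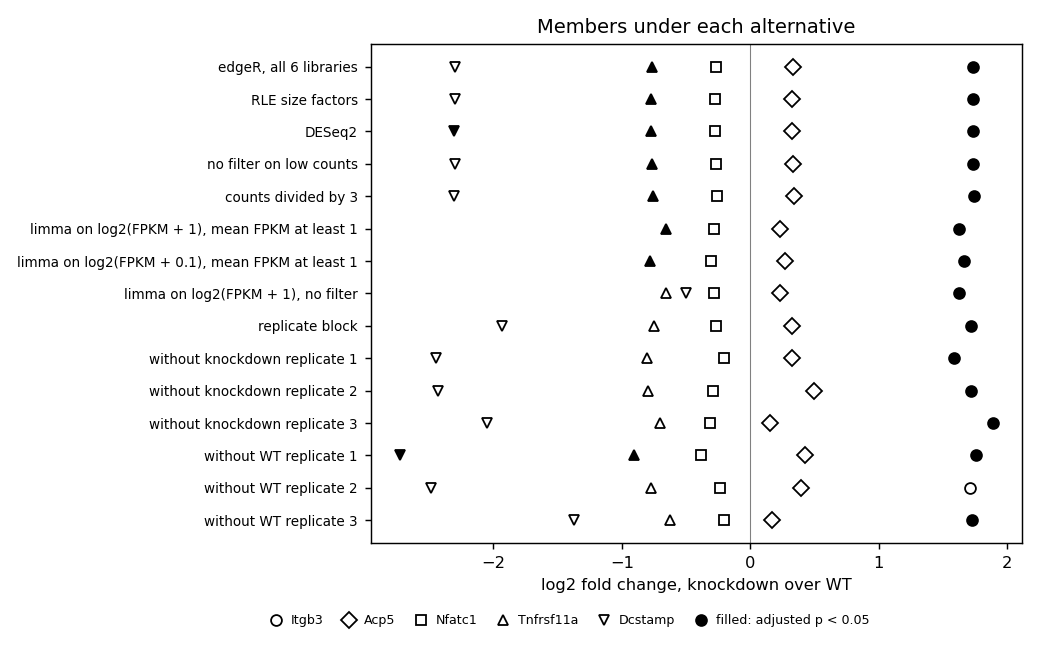
Log2 fold change, knockdown over WT, of the 5 tested genes under edgeR with all 6 libraries and 14 alternatives; filled symbols have an adjusted p under 0.05. Itgb3 stays between 1.59 and 1.89 and loses the call without WT replicate 2, while Tnfrsf11a stays between -0.90 and -0.62 and is filled in 8 of 15 fits, the first row included.

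By FPKM, which is per length, the levels in the knockdown ran from Itgb3 over Nfatc1, Acp5, Tnfrsf11a, Dcstamp, Oscar and Ocstamp to Calcr. In the knockdown the ranges of neighbours in this order did not overlap down to Oscar, and those of Oscar and Ocstamp did. In WT, Tnfrsf11a (4.83 to 7.36 FPKM) stood before Acp5 (4.05 to 5.80 FPKM), but their ranges overlapped, as did those of Dcstamp and Oscar and of Oscar and Ocstamp.

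The partners of Itgb3 were measured beside it. Itgav, the alpha V subunit, averaged 2.66 ± 0.425 FPKM in knockdown libraries and 2.72 ± 0.0916 FPKM in WT libraries (SD, n = 3 each), with a log2 fold change of 0.02 (edgeR adjusted p = 0.943). The ratio of Itgb3 to Itgav FPKM within a library was 34.8, 35.04 and 18.6 in knockdown replicates 1 to 3, against 9.05, 8.57 and 8.36 in WT replicates 1 to 3. The beta subunits Itgb1, Itgb2 and Itgb5 did not pass, with log2 fold changes of -0.04, 0.03 and 0.22. Itgb3 stood at 0.883 ± 0.219 times the FPKM of Itgb1 in the knockdown and at 0.257 ± 0.0211 times in WT, and at 1.78 ± 0.443 times that of Itgb5 in the knockdown and 0.616 ± 0.0510 times in WT (exact permutation test, two-sided, p = 0.1 for each ratio, the smallest that 3 against 3 allows). These ratios reuse the Itgb3 values over partners that changed little, so they are not separate evidence of its rise.

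**Figure D3:**
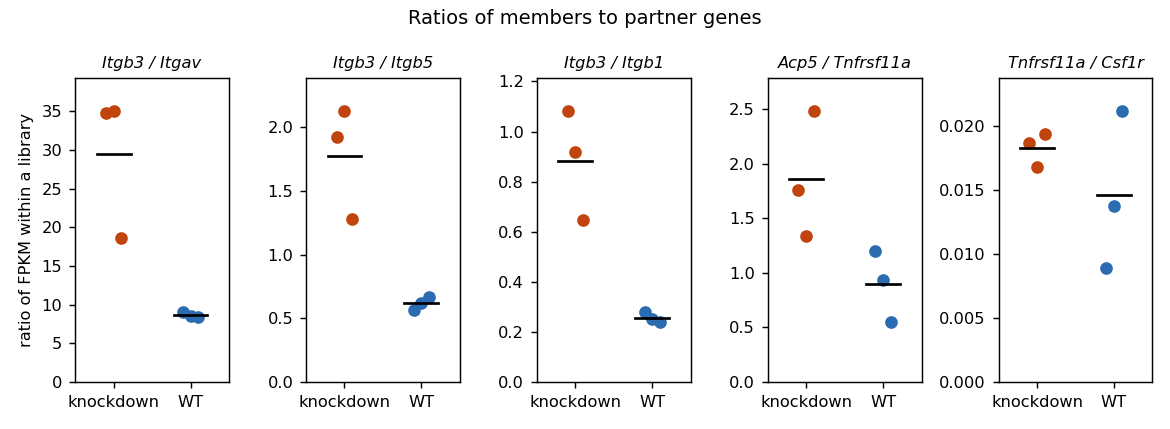
Ratios of deposited FPKM within a library, knockdown left of WT, 1 point per library and a bar at the mean; each panel has its own axis from 0. The Itgb3 ratios to Itgav, Itgb5 and Itgb1 are higher in all 3 knockdown libraries than in any WT library, whereas the ratio of Tnfrsf11a to Csf1r overlaps between the groups.

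Itgb3 is also a platelet gene, so megakaryocyte and platelet markers were set beside it. Of 11 markers all had counts, 10 had a mean of at least 1 FPKM, and none passed the test, with log2 fold changes from 0.29 to 1.65. Their FPKM summed to 290, 407 and 116 in knockdown replicates 1 to 3, against 142, 120 and 112 in WT replicates 1 to 3. Itga2b, the platelet partner of Itgb3, had 18.3, 24.7 and 7.01 FPKM in knockdown replicates 1 to 3, against 10.7, 11.2 and 9.98 FPKM in WT (log2 fold change 0.69, edgeR adjusted p = 0.287). Without knockdown replicate 3 the Itga2b fold change was 1.05 and passed (adjusted p = 0.0234). In knockdown replicates 1 and 2 the marker sum and Itga2b lay above the WT range. Itgb3 was 3.77 and 3.43 times the WT mean in these libraries. In knockdown replicate 3 the marker sum lay inside the WT range, Itga2b below it, and Itgb3 was 2.48 times the WT mean. The part of these cells in the higher Itgb3 was not tested.

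**Figure D4:**
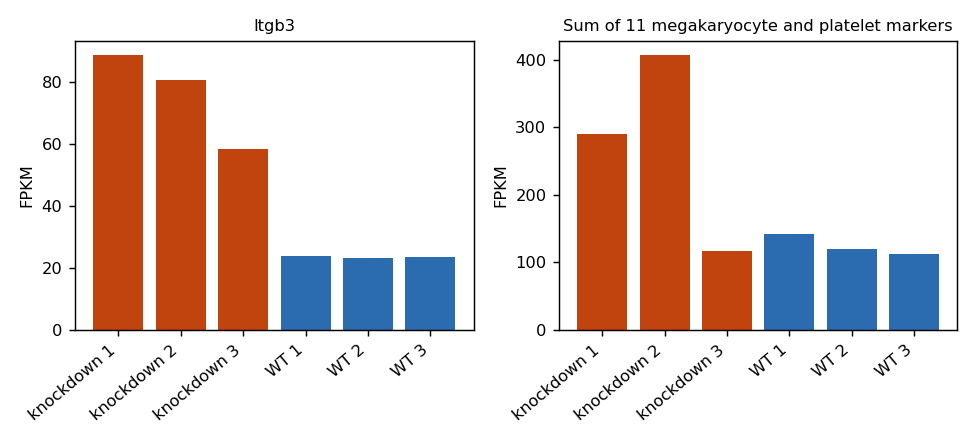
FPKM of Itgb3 (left) and summed FPKM of 11 megakaryocyte and platelet markers (right) in each library, knockdown bars left of WT bars, axes from 0. Knockdown replicates 1 and 2 have the highest bars in both panels. Knockdown replicate 3 has 58.2 FPKM of Itgb3, above the 3 WT libraries, and a marker sum of 116, within the WT range of 112 to 142.

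RANK ligand and the markers of cells that make it were low in both groups. Tnfsf11, which encodes RANK ligand, averaged 0.0183 ± 0.0316 FPKM in knockdown and 0.0121 ± 0.0104 FPKM in WT libraries, and its decoy Tnfrsf11b had a count of 0 in all libraries. The T cell list summed to 0.653 to 1.04 FPKM in the knockdown and 0.696 to 1.05 FPKM in WT, with Cd3g at 0. The osteoblast and stromal list summed to 3.29 to 6.57 FPKM in the knockdown and 5.07 to 8.90 FPKM in WT, with Dmp1 at 0, and none of 7 tested genes passed. Mast cell and basophil markers summed to 13.7 to 18.7 FPKM in the knockdown and 3.98 to 4.29 FPKM in WT, with 2 of 6 tested genes higher. Erythroid markers summed to 1.596 to 9.20 FPKM in the knockdown and 0.640 to 1.13 FPKM in WT, with 1 of 4 tested genes higher. B cell markers summed to 10.6 to 31.1 FPKM in the knockdown and 56.0 to 72.5 FPKM in WT, with 1 of 6 tested genes lower. Neutrophil and dendritic cell markers summed to 68.9 to 119 and 11.2 to 14.2 FPKM in the knockdown, against 91.3 to 138 and 7.19 to 9.79 FPKM in WT. Of 7 tested neutrophil markers 1 was higher (Mpo) and 1 lower (Ltf), and of 7 tested dendritic cell markers none passed. Of all tested genes, 4.87% were called higher and 6.46% lower. The part of these cells in the results was not tested.

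The other genes of the pathway were read from 10 lists by role. The lists were chosen with earlier results of these data known, so their shares called only describe them. Of 181 tested genes in these lists, 13 were higher and 30 lower in the knockdown (edgeR adjusted p under 0.05), that is 23.8% of them, where 11.3% of all tested genes were called. The median log2 change over these genes was -0.14, where over all tested genes it was 0.02. The share called was 9.09% in the RANK signal chain and 10.5% in the calcium and NFAT list, both under the 11.3% of all tested genes. It was 14.3% in the ITAM list, 18.2% in the M-CSF receptor arm, 1 of 5 genes in the calcitonin receptor family and 25.8% in the adhesion list. It was 30.0% among transcription factors, 31.8% among fusion genes, 34.8% in the resorption machinery and 35.7% among the restraining factors. Without knockdown replicates 1, 2 and 3 the lists had 6, 8 and 7 higher genes and 5, 13 and 13 lower genes. Without WT replicate 2 they had 0 and 0 (20 and 47 at an unadjusted p under 0.05), and without WT replicate 3 they had 5 and 9. Without WT replicate 1 they had 14 and 25. In what follows, values in parentheses without a unit are log2 fold changes, and means carry their SD (n = 3 each). Beside each called gene stands the number of 14 alternatives that kept its call, where a gene was tested in all 14.

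**Figure D5:**
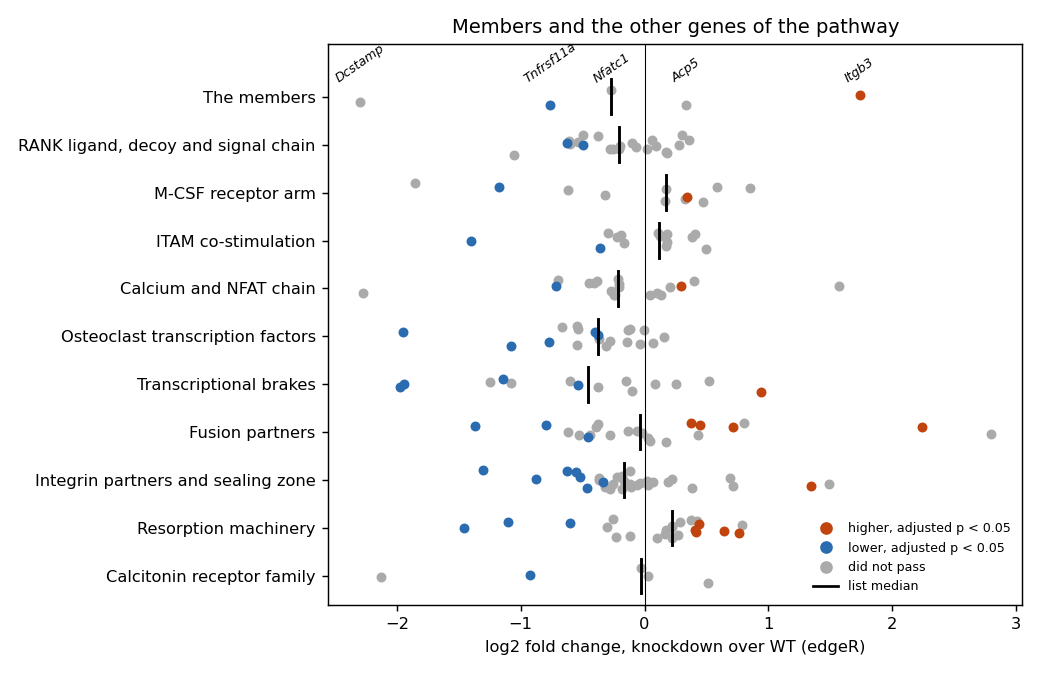
Log2 fold changes, knockdown over WT, of the 5 tested members (top row, named) and of the tested genes in 10 lists of the pathway, 1 point per gene and a black bar at each list's median. Points past the threshold lie on the left in the transcription factor list and on both sides in the fusion and resorption lists; Fosl1, which has a count of 0 in the knockdown, is not drawn.

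In the RANK signal chain 2 of 22 tested genes were lower and none higher, with a median of -0.20. Nfkb1, a subunit of NF-kB, averaged 5.85 ± 0.447 FPKM in knockdown libraries and 9.34 ± 0.749 FPKM in WT libraries (-0.63, edgeR adjusted p = 0.0128, kept in 12 alternatives). Mapk14, the kinase p38 alpha, averaged 11.5 ± 0.280 FPKM in knockdown libraries and 16.9 ± 0.628 FPKM in WT libraries (-0.50, adjusted p = 0.0149, kept in 11). Of the abundant genes that did not pass, the RANK scaffold Sqstm1 had a log2 fold change of 0.02 and the NF-kB inhibitor Nfkbia -0.61 (adjusted p = 0.893 and 0.0816).

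The M-CSF receptor gene Csf1r, whose signal keeps precursors alive, was also lower in the knockdown. It had 190, 223 and 160 FPKM in knockdown replicates 1 to 3, against 541, 447 and 347 FPKM in WT replicates 1 to 3 (-1.18, SE 0.19, edgeR adjusted p = 0.0173, kept in 11 alternatives). Within a library the ratio of Tnfrsf11a to Csf1r FPKM was 0.0168 to 0.0194 in the knockdown and 0.00891 to 0.0212 in WT, so it overlapped (exact permutation test, two-sided, p = 0.4). Over WT replicates 1 to 3, Csf1r fell (541 to 347 FPKM) and Tnfrsf11a rose (4.83 to 7.36 FPKM). A link between them was not tested. Of 11 tested genes in this arm, 1 was higher and 1, Csf1r, was lower. Mapk3 (0.17) and Grb2 (0.85) were abundant and did not pass.

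The ITAM adaptors on which OSCAR and its relatives depend were abundant. Tyrobp (DAP12) averaged 1112 ± 86.9 FPKM in knockdown libraries and 1021 ± 98.1 FPKM in WT libraries, and Fcer1g, the adaptor of OSCAR, 881 ± 64.0 FPKM in knockdown and 836 ± 33.0 FPKM in WT libraries; neither passed (0.17 and 0.12). Of 14 tested genes in this list, 2 were lower and none higher. They were Sirpb1a (-1.40, edgeR adjusted p = 0.0233, kept in 10 alternatives), a DAP12-linked receptor with close relatives among which reads can be split, and Plcg2, the phospholipase that opens the calcium signal (-0.36, adjusted p = 0.0418, kept in 5).

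In the calcium and NFAT list 1 of 19 tested genes was lower and 1 higher. Nfatc2, a relative of Nfatc1 that helps to start its transcription, had 1.36, 1.64 and 1.38 FPKM in knockdown replicates 1 to 3, against 2.44, 2.46 and 2.54 FPKM in WT replicates 1 to 3 (-0.72, SE 0.10, edgeR adjusted p = 0.0123, kept in 11 alternatives). Ppp3r1, the regulatory subunit of calcineurin, rose slightly (0.29, adjusted p = 0.0349, kept in 6). The channel gene Trpv2 (-0.25) was abundant and did not pass.

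Among 20 tested transcription factors of osteoclast formation 6 were lower and none higher, with a median of -0.37. Junb, an AP-1 subunit, had a log2 fold change of -0.77 (edgeR adjusted p = 0.0265, kept in 9 alternatives), Spi1, which encodes PU.1, -0.38 (adjusted p = 0.0281, kept in 8), and Hif1a -0.40 (adjusted p = 0.0306, kept in 6). Fos, without which mice form no osteoclasts and which was singled out after its values were seen, had 65.1, 38.8 and 18.2 FPKM in knockdown replicates 1 to 3, against 143, 152 and 197 FPKM in WT replicates 1 to 3 (-1.95, SE 0.43, adjusted p = 0.0346, kept in 7). Fosl1 had a count of 0 in all knockdown libraries and 0.0530, 0.145 and 0.106 FPKM in WT. Jun (-0.14) and Atf4 (-0.53) did not pass.

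Factors that restrain osteoclast formation were called in both directions, 1 higher and 4 lower of 14 tested. Id2, an inhibitor of helix-loop-helix factors, had 58.5, 55.1 and 67.03 FPKM in knockdown replicates 1 to 3, against 33.9, 30.7 and 32.8 FPKM in WT replicates 1 to 3 (0.94, SE 0.11, edgeR adjusted p = 0.0103, kept in 13 alternatives). Rbpj, the DNA-binding partner of Notch, fell to 14.3 ± 2.58 FPKM in the knockdown, against 32.8 ± 4.60 FPKM in WT (-1.14, adjusted p = 0.0129, kept in 13). The nuclear receptor gene Nr4a1 was lower too (-1.97, adjusted p = 0.0249, kept in 7). Irf8 (-0.15) and Bcl6 (-0.37) did not pass.

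Among the other fusion genes 4 of 22 tested were higher and 3 lower, with a median of -0.04. Atp6v0d2, a proton pump subunit needed for fusion of mouse osteoclasts, had 54.8, 46.9 and 110 FPKM in knockdown replicates 1 to 3, against 15.1, 13.7 and 17.8 FPKM in WT replicates 1 to 3 (2.24, SE 0.34, edgeR adjusted p = 0.0152, kept in 13 alternatives). The tetraspanin genes Tspan13 (0.71, adjusted p = 0.0198, kept in 8) and Cd81 (0.45, adjusted p = 0.0321, kept in 6) rose, and the metalloprotease gene Adam8 fell (-1.37, adjusted p = 0.0219, kept in 9). The list was not split into genes that promote and genes that restrain fusion, so these calls give no direction for fusion itself. Sirpa (0.03) and Stat6 (-0.02) were abundant and did not pass. Among the knockdown libraries, replicate 3 was the highest for Atp6v0d2 and the lowest for Itgb3.

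In the adhesion and sealing zone list 1 of 31 tested genes was higher and 7 lower. Src, the kinase that acts below the beta 3 integrin at the ruffled border, had 5.62, 6.65 and 6.69 FPKM in knockdown replicates 1 to 3, against 2.72, 2.64 and 2.36 FPKM in WT replicates 1 to 3 (1.34, SE 0.12, edgeR adjusted p = 0.00963, kept in 13 alternatives). Among the lower genes were the exchange factor gene Dock5 (-0.63, adjusted p = 0.0123, kept in 12), Wasf2 (-0.52, adjusted p = 0.0173, kept in 10) and Was (-0.33, adjusted p = 0.0326, kept in 6). Cdc42 (-0.26) and Itgb2 (0.03) were abundant and did not pass.

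Of 23 tested genes of the resorption machinery 5 were higher and 3 lower. The lysosomal channel gene Mcoln1 (0.64, edgeR adjusted p = 0.0113) and the proton pump subunit gene Atp6v1c1 (0.76, adjusted p = 0.0114) rose, each kept in 13 alternatives, as did Atp6v0d1 (0.44, adjusted p = 0.0189, kept in 10), while the anion exchanger gene Slc4a2 fell (-0.60, adjusted p = 0.0190, kept in 8). The bone matrix proteases did not pass. Ctsk had 52.4, 46.0 and 92.3 FPKM in knockdown replicates 1 to 3, against 62.7, 76.8 and 76.1 FPKM in WT replicates 1 to 3 (-0.12, adjusted p = 0.801), and Mmp9 had 1.01 ± 0.572 FPKM in knockdown libraries and 1.27 ± 0.475 FPKM in WT libraries (-0.31, adjusted p = 0.688). Lamp1 (0.43) and Rab7 (0.29) were abundant and did not pass.

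Beside the silent Calcr, its relative Calcrl, the receptor of adrenomedullin and CGRP, was expressed and fell. It had 4.27, 5.18 and 3.78 FPKM in knockdown replicates 1 to 3, against 8.51, 8.65 and 8.79 FPKM in WT replicates 1 to 3 (-0.93, SE 0.11, edgeR adjusted p = 0.0113, kept in 13 alternatives), and was the only one of 5 tested genes of the family to pass. Its co-receptors Ramp1 (0.03) and Ramp3 (0.51) did not pass, Ramp2 was under the count filter, and Crcp (-0.03) did not pass.

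A second view came from the KEGG osteoclast differentiation map in the deposited annotation, taken up after the values were seen, without the 8 genes above. Of 113 tested genes in it, 5 were higher and 19 lower, that is 21.2%, where 11.3% of all tested genes were called (4.87% higher, 6.46% lower). The median log2 change was -0.19, where over all tested genes it was 0.02. The 10 lists share 59 genes with it, so the counts are not separate. Without single libraries the map had 0 to 5 higher and 0 to 16 lower genes, the lowest without WT replicate 2 (8 and 34 at an unadjusted p under 0.05 in edgeR).

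The genes whose pattern over the 6 libraries lay nearest to each member were found by the root mean square distance of centred log2 counts per M, among 11486 genes with a mean of at least 1 FPKM. For Itgb3 these were Tmem40 (distance 0.202), Dpm1 (0.210) and Bcl2a1a (0.236), the last of a family of near-identical copies. For Tnfrsf11a they were Zfand4 (0.0376), Anapc5 (0.0384) and Cep192 (0.0432), and for Nfatc1 Agk (0.0388), Slc39a14 (0.0391) and Trmt2a (0.0398). For Acp5 they were Asah1 (0.0545), Gm16861 (0.0703) and Gm6204 (0.0877), and for Dcstamp Timeless (0.169), Slc7a5 (0.239) and Slfn9 (0.277).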

How the data were processed

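RNA was sequenced from bone marrow-derived macrophages in 3 Lamtor5 knockdown and 3 WT libraries, grouped by the genotype label. Per the labels' protocols, a column kit gave the RNA and a SMARTER mRNA-Seq kit the libraries. Adapters were removed with cutadapt 1.9, per the file headers of the logs. The build is GRCm38 (mm10), per the submitters' processing notes; no source used here names the aligner, counter or annotation. The deposited table holds estimated counts per gene made by the authors, whole numbers that sum to 2.95 to 3.01 per read pair kept, and FPKM by the authors, listed at 0.0001 where the count is 0 and set to 0 here. Each library held 26.0 to 28.0 M read pairs, and its estimated counts summed to 75.8 to 83.2 M. Since counts exceed read pairs, no binomial interval was made.

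Genes kept by filterByExpr (minimum count 10) were tested with edgeR 4.0.16 (R 4.3.3): TMM, quasi-likelihood fit, group as the only term, Benjamini-Hochberg adjustment over 18164 genes, threshold 0.05. The standard error is the log2 fold change over the square root of F. Values under the filter, and ratios, got exact permutation tests (scipy 1.17.1). Groups were said not to overlap by log2 counts per M. Alternatives were RLE, DESeq2 1.42.0, no filter, counts divided by 3, limma 3.58.1 on log2(FPKM + 1) or log2(FPKM + 0.1), a block for the replicate number, and fits that drop 1 library each. Pathway genes were named by a rule: up to 4 past the threshold with the smallest p per list, up to 2 abundant ones that did not pass, and partners of members; the 3 nearest patterns were named per tested member. The members, lists and rule were chosen with earlier results of these data known. Of the list genes, 1 symbol (Arhgef8) had no row. Some genes that the rule names are not reported here.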

Additional observations from a re-analysis of the deposited data

How the results depend on the processing

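Across 14 alternatives no called direction of a member or named pathway gene reversed. The counts of called genes moved most. Of all genes, 885 were higher and 1173 lower; DESeq2 called 1913 and 2234, edgeR without the filter on low counts 510 and 695, and limma on log2(FPKM + 1) without a filter 361 and 430. Leaving out 1 library gave 0 to 945 higher and 0 to 1389 lower. Among the 8 members, leaving out 1 library gave 0 to 1 higher and 0 to 2 lower, DESeq2 called 2 lower (with Dcstamp at -2.31) and unfiltered limma 0 lower (with Tnfrsf11a at -0.66). In the 10 pathway lists, where 13 were higher and 30 lower, edgeR without the filter called 8 and 14, unfiltered limma 6 and 8, and DESeq2 48 lower; leaving out 1 library gave 0 to 14 higher and 0 to 25 lower. In the KEGG map, with 5 higher and 19 lower, edgeR without the filter called 3 higher, unfiltered limma 1 and 7, and DESeq2 34 lower; leaving out 1 library gave 0 to 5 higher and 0 to 16 lower. Over the fits without 1 library, the log2 fold change of Itgb3 ran from 1.59 to 1.89, that of Tnfrsf11a from -0.90 to -0.62 and that of Dcstamp from -2.73 to -1.37. The cause of these changes was not tested.

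Samples with the same replicate number did not deviate together (correlations of 0.05, 0.04 and -0.01), so the numbers were not taken to pair them. With the replicate number as a block, 304 genes were higher and 424 lower, 0 members were lower (Tnfrsf11a at -0.75, adjusted p = 0.0836 in edgeR), the pathway lists had 5 higher and 8 lower, and the KEGG map 1 and 11. At this depth, low expression and no expression cannot be told apart where Oscar, Ocstamp and Calcr have a count of 0.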
